A study of Mus musculus with 14 samples.

Results

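The type I interferon response genes followed here are 9 named mouse genes: Irf9, Stat2 and Irf7, which encode transcription factors of the response, Ifit1, Ifit2, Oasl2 and Rsad2, which encode antiviral proteins, and Isg15 and Usp18, which encode a ubiquitin-like protein and the protease that removes it. They were chosen by symbol, with earlier results of these data known. A gene was measured by the probe sets whose platform annotation names it alone. The brightest over all arrays was taken as the gene and the others as a check. By that rule 8 of the 9 members were measured, with 11 probe sets, among 18194 genes and 45101 probe sets in all. The single probe set of Isg15 also names Gm9706, so no value is given for Isg15.

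The data are 14 Affymetrix arrays of sorted bone marrow cells of the LSK phenotype, which lack lineage markers and carry Sca1 and Kit, the fraction of the marrow that contains its stem cells and multipotent progenitors. All the mice were hCD34 x H2BGFP double transgenics on a C57BL/6 background (10 or more backcross generations), in which a human CD34 promoter drives, through the tetracycline transactivator, a histone H2B fused to GFP. All drank doxycycline at 1 mg/ml for 12 weeks, starting when they were 6 to 8 weeks old, which stops new label, so that GFP is diluted by division. The sorted levels were GFP0 (most diluted, 2 arrays), GFP1 (3 arrays), GFP2 (3 arrays), GFP3 (2 arrays) and GFP4 (label retained, 4 arrays). The levels are ranks read from GFP brightness. The labels do not say whether GFP0 includes cells that never carried label, and no interferon-treated cells were analysed here. The labels call the arrays biological replicates without naming the animals behind them. Sorts of different levels may thus share animals, which the main fit does not include. The p-values weigh differences between levels against the spread between arrays of 1 level, and the number of arrays limits the precision.

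Type I interferons bind the receptor made of Ifnar1 and Ifnar2, whose kinases Jak1 and Tyk2 phosphorylate Stat2. Stat2 joins Irf9 in a complex that binds the interferon-stimulated response element in target promoters. Irf7 amplifies interferon production, and Usp18 both cleaves Isg15 from proteins and dampens signalling at Ifnar2. In mouse bone marrow, interferon alpha is known to drive dormant stem cells into division, and a low basal level of interferon-stimulated genes has been described as part of the stem cell state.

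All values are log2 expression as deposited, and differences are log2 differences. The arrays of 1 level correlated with r between 0.928 and 0.990 over all genes, and interquartile ranges lay between 2.09 and 2.73, with GFP0 replicate 1 and GFP4 replicate 1 narrowest. GFP4 replicate 2 had the lowest median r with the arrays of its own level (0.948), next to 0.949 for the GFP0 arrays. The defining marker Kit lay between 8.05 and 9.91 over the 14 arrays and Cd34 between 9.73 and 12.01. Ly6a, which encodes Sca1, has no probe set of its own and was not checked. In bulk RNA, fewer expressing cells and less RNA per cell cannot be told apart.

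Across the levels, 2 of the 8 measured members, Ifit1 and Oasl2, had a slope called higher, none had a slope called lower, and 6 did not pass. The level means of Oasl2 were 8.13, 9.66, 9.55, 9.91 and 9.49 from GFP0 to GFP4. Its slope thus rested on the low GFP0 level and was not a steady rise with GFP retention. The slope is the fitted log2 change per GFP level, and a gene was called at an adjusted p under 0.05 in limma after Benjamini-Hochberg adjustment over all genes. Among all genes 3.35% were called by this test, 2.28% higher and 1.07% lower. The median slope was 0.19 per level over the 8 members and -0.0095 over all genes, and 7 of the 8 members had a positive slope, against 45.2% of all genes. The same 2 members were called in GFP4 against GFP0, where 1.68% of all genes were called, 1.25% higher and 0.429% lower. The median difference was 0.69 over the members and -0.038 over all genes, and it was positive in 7 of 8 members and in 45.4% of all genes. Because the members were chosen with earlier results of these data known, these contrasts with all genes describe the list and are not a test. In 5 of the 8 members, Ifit1, Oasl2, Irf7, Stat2 and Rsad2, every GFP4 array lay above both GFP0 arrays. The arrays of these levels lay apart with GFP4 higher in 10.4% of all genes and in either direction in 18.1%. Without GFP0 replicate 1 no member was called in either comparison, and the median slope was 0.13, while without GFP4 replicate 2 it was 0.12. All 8 members had a mean above the table median of 7.03.

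**Figure D1:**
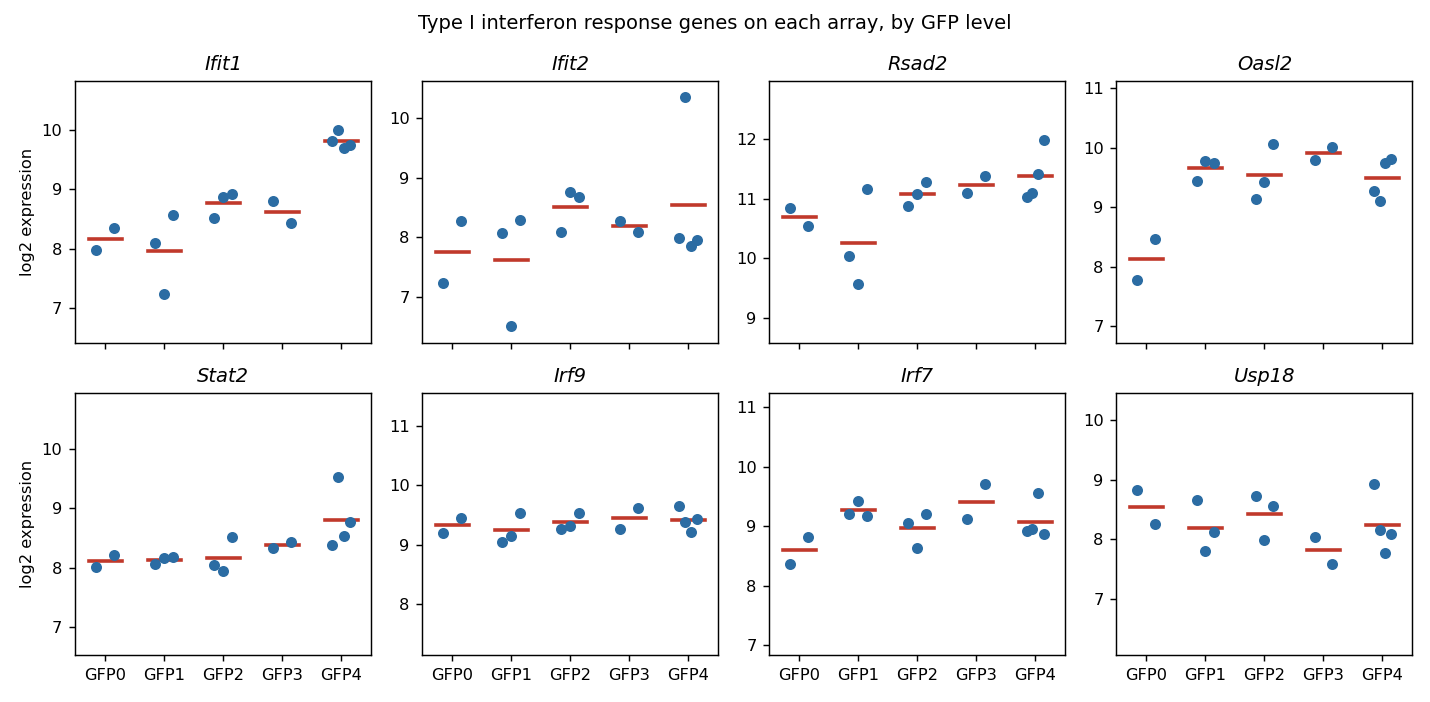
Log2 expression of the 8 measured members (y axis) on each of 14 arrays, by GFP level from GFP0 to GFP4 (x axis). Points are arrays and red bars level means, and every panel spans the same log2 range. The 4 GFP4 arrays of Ifit1 lie above its other 10 arrays, and both GFP0 arrays of Oasl2 lie below its other 12.

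Ifit1 encodes a protein that binds viral RNA lacking host cap methylation. Its 4 GFP4 arrays read 9.81, 10.00, 9.68 and 9.73. Its GFP0 arrays read 7.98 and 8.34. Every GFP4 array lay above all arrays of the other levels, which 0.462% of all genes did. Between these ends Ifit1 read 8.10, 7.23 and 8.57 in GFP1. It read 8.52, 8.87 and 8.92 in GFP2 and 8.80 and 8.43 in GFP3. GFP2 and GFP3 overlapped, as did GFP0 and GFP1, so that the level that stands clear is GFP4.

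The GFP4 mean of Ifit1 was 9.81 (SD 0.14, n = 4), against 8.16 in GFP0 (SD 0.25, n = 2). The difference was 1.65 ± 0.30 (SE), or 3.13-fold (limma adjusted p = 0.0172). The slope was 0.39 ± 0.07 per level (SE, adjusted p = 0.00796). It was the 1 member with a difference among any of the 5 levels in the moderated F test (adjusted p = 0.0285), a test passed by 0.698% of all genes. That call was lost without any 1 of GFP0 replicate 1, GFP2 replicate 2, GFP3 replicate 2 and GFP4 replicates 1, 3 and 4. The call of the slope was lost without GFP0 replicate 1 (0.36, adjusted p = 0.0719). That of the difference was lost without GFP0 replicate 1 (1.47, adjusted p = 0.149) or GFP0 replicate 2 (1.83, adjusted p = 0.0533). With the 3′ minus 5′ signal of the Actb and Gapdh control probe sets, a sign of RNA quality, as covariates, the slope was 0.34 (adjusted p = 0.104). Over GFP0 to GFP3 alone, a range chosen after seeing the data, the slope of Ifit1 was 0.22 (adjusted p = 0.322).

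Oasl2 encodes an antiviral protein of the oligoadenylate synthetase family with ubiquitin-like domains. It read 9.28, 9.10, 9.75 and 9.82 in GFP4, against 7.79 and 8.46 in GFP0. The values in GFP1 were 9.45, 9.77 and 9.74. Those in GFP2 were 9.15, 9.43 and 10.06, and those in GFP3 were 9.80 and 10.02. Both GFP0 arrays lay below the other 12, as was the case for 3.05% of all genes, and the 4 upper levels overlapped except for GFP1 and GFP3.

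The difference of Oasl2 between GFP4 (9.49 ± 0.35, SD, n = 4) and GFP0 (8.13 ± 0.48, SD, n = 2) was 1.36 ± 0.29 (SE, adjusted p = 0.0368), or 2.57-fold. The slope was 0.30 ± 0.07 per level (SE, adjusted p = 0.0288). Over GFP1 to GFP4 alone, a range chosen after seeing the data, the slope was -0.014 (adjusted p = 0.952). With the control signals as covariates it was 0.29 (adjusted p = 0.165). The slope no longer passed without GFP0 replicate 1 (0.23, adjusted p = 0.185), GFP3 replicate 1 (0.31, adjusted p = 0.0502), GFP3 replicate 2 (0.29, adjusted p = 0.0944), GFP4 replicate 3 (0.28, adjusted p = 0.0559) or GFP4 replicate 4 (0.28, adjusted p = 0.066). The difference no longer passed without GFP0 replicate 1 (1.02, adjusted p = 0.267), GFP2 replicate 2, either GFP3 array (1.36 each), GFP4 replicate 3 (1.27) or GFP4 replicate 4 (1.25).

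The promoters of the called members differed in a motif that the interferon complex is known to bind. The RefSeq windows (GRCm38.p6), 250 bases before to 50 after the gene start, are shown for Ifit1 and Oasl2, and for Stat2 and Rsad2 as other members that hold the motif. They are printed in the direction of the gene. Capitals mark the core of the interferon-stimulated response element, searched as GAAA, any 2 bases and GAAA on either strand, which reads TTTC, any 2 bases and TTTC on the other.
Ifit1 (chr19:34640639-34640938, plus strand): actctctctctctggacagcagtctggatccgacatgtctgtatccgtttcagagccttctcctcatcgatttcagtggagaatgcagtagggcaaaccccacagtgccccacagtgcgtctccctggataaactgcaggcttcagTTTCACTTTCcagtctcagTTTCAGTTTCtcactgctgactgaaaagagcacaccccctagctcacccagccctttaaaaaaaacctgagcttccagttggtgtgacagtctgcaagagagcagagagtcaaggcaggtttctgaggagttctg
Oasl2 (chr5:114896684-114896983, plus strand): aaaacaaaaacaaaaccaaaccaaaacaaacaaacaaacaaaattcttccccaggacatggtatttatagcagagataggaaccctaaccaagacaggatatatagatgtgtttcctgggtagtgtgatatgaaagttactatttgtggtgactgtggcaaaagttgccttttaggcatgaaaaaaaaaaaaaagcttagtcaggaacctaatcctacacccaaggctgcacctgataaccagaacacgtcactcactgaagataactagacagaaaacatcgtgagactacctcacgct
Stat2 (chr10:128270248-128270547, plus strand): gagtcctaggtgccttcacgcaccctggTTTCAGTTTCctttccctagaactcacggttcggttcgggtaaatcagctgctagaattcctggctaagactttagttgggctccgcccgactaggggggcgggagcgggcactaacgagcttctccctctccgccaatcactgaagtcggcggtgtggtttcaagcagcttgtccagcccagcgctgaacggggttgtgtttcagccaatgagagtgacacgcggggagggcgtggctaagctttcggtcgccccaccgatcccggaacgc
Rsad2 (chr12:26456403-26456702, minus strand): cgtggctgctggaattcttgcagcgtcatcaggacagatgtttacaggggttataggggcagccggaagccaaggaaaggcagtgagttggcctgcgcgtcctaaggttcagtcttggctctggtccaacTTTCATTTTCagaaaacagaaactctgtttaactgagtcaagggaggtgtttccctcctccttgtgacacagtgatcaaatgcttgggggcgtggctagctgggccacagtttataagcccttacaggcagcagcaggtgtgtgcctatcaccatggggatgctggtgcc
Counted from the gene start, Ifit1 held 2 copies, at -104 and -85, Rsad2 held 1 at -120, and Stat2 held 1 at -222. Of the 8 members with a window, 4 held the motif (Ifit1, Isg15, Rsad2 and Stat2), against 3.99% of 27025 genes. The windows of Oasl2, Irf7, Irf9 and Ifit2 did not contain these letters, and Usp18 had no window. The gamma-activated site TTCNNNGAA, which reads the same on the other strand, was found in the window of 1 member, Ifit2, and in 9.55% of genes. A match describes the letters only.

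Ifit2, a relative of Ifit1 on the same chromosome whose protein has a similar repeat structure, did not pass. It read 7.98, 10.35, 7.85 and 7.96 in GFP4, against 7.24 and 8.27 in GFP0. The GFP4 mean of 8.54 ± 1.21 (SD, n = 4) thus rested on replicate 2, and the groups overlapped. The other levels lay between 6.50 and 8.77. The difference from GFP0 was 0.78 ± 0.66 (SE, adjusted p = 0.646), and 0.18 without GFP4 replicate 2. It was 0.27 without GFP0 replicate 1 and 1.30 without GFP0 replicate 2. The slope was 0.21 ± 0.15 (SE, adjusted p = 0.525), 0.09 without GFP4 replicate 2 and 0.11 without GFP0 replicate 1.

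Rsad2 encodes viperin, a radical SAM enzyme that makes a chain-terminating nucleotide. It read 11.03, 11.09, 11.41 and 11.99 in GFP4, against 10.84 and 10.53 in GFP0. The values were 10.04, 9.56 and 11.16 in GFP1, between 10.88 and 11.28 in GFP2, and 11.09 and 11.38 in GFP3. All GFP4 arrays lay above both GFP0 arrays, but GFP4 overlapped GFP1, GFP2 and GFP3. The slope was 0.24 ± 0.08 (SE, adjusted p = 0.163), and 0.28 (adjusted p = 0.0315) without GFP1 replicate 3, the 1 omission that brought a call. The difference of GFP4 from GFP0 was 0.69 ± 0.37 (SE, adjusted p = 0.433). The other probe sets of Rsad2 had slopes of 0.34 (adjusted p = 0.122) and 0.06 (adjusted p = 0.726), the second of them dim, between 6.28 and 7.67.

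Stat2 and Irf9 are the partners of the DNA-binding complex. Stat2 read 8.38, 9.52, 8.53 and 8.76 in GFP4, against 8.01 and 8.22 in GFP0. Its level means kept the order of GFP, with 8.12, 8.13, 8.16, 8.38 and 8.80 from GFP0 to GFP4 (SD 0.14, 0.07, 0.30, 0.07 and 0.51), although GFP0, GFP1 and GFP2 did not differ beyond their spread. The slope was 0.16 ± 0.06 (SE, adjusted p = 0.202). The difference was 0.68 ± 0.28 (SE, adjusted p = 0.26), and 0.44 without GFP4 replicate 2, a move of over 1.5 times. The second probe set of Stat2 was dim (6.05 to 6.50) and had a slope of 0.015 (adjusted p = 0.886).

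Irf9 moved least. Its mean was 9.42 in GFP4 (SD 0.17, n = 4) and 9.32 in GFP0 (SD 0.19, n = 2). All 14 arrays lay between 9.05 and 9.64, and every level overlapped every other. Its slope was 0.04 ± 0.04 (SE, adjusted p = 0.726), the smallest in size among the members.

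Irf7 read 8.92, 8.95, 9.56 and 8.87 in GFP4, against 8.37 and 8.82 in GFP0. The values in GFP1 lay between 9.17 and 9.43. Those in GFP2 lay between 8.63 and 9.22, and those in GFP3 were 9.12 and 9.71. The GFP0 arrays were thus below those of GFP1, GFP3 and GFP4 but overlapped GFP2. The slope was 0.11 ± 0.06 (SE, adjusted p = 0.373) and the difference of GFP4 from GFP0 was 0.48 ± 0.26 (SE, adjusted p = 0.431). Without GFP0 replicate 2 that difference was 0.70, and without GFP0 replicate 1 it was 0.25, and without GFP4 replicate 3 it was 0.32, none of which passed.

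Usp18 was the 1 member with a negative slope (-0.10 ± 0.08, SE, adjusted p = 0.573). It read 8.93, 8.17, 7.77 and 8.09 in GFP4, against 8.83 and 8.26 in GFP0. GFP1 ranged from 7.81 to 8.66, GFP2 from 7.99 to 8.73 and GFP3 from 7.59 to 8.04. GFP4 and GFP0 overlapped. Both GFP3 arrays lay below both GFP0 arrays, but GFP3 against GFP0 was not tested, and the share of all genes with such a gap was not counted. GFP4 differed from GFP0 by -0.31 ± 0.34 (SE, adjusted p = 0.732). Without GFP0 replicate 1 the difference was -0.019 and the slope -0.042, and without GFP0 replicate 2 they were -0.59 and -0.16. The difference was -0.54 without GFP4 replicate 1 and -0.15 without GFP4 replicate 3.

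**Figure D2:**
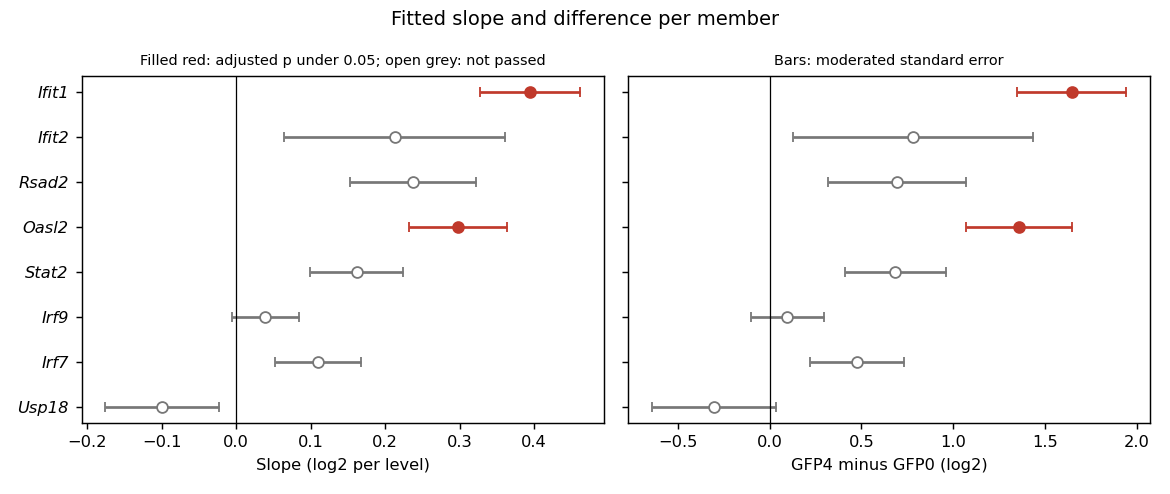
Fitted slope in log2 per GFP level (left) and GFP4 minus GFP0 in log2 (right) for the 8 members. Points are limma estimates with moderated standard errors, filled red where the adjusted p was under 0.05. Ifit1 (0.39 and 1.65) and Oasl2 (0.30 and 1.36) are filled in both panels, and Usp18 lies below 0 in both.

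The steps between neighbouring levels asked where along the levels each member moved. No member passed at any of the 4 steps in limma, nor did any other gene (0% at each step). Of the 32 member steps, 5 had an unadjusted p under 0.05. Ifit1 had its largest step between GFP4 and GFP3 (1.19 ± 0.30, SE, unadjusted p = 0.00148, adjusted p = 0.888) and another between GFP2 and GFP1 (0.80 ± 0.28, SE, unadjusted p = 0.0132, adjusted p = 1). Oasl2 had its largest between GFP1 and GFP0 (1.53 ± 0.31, SE, unadjusted p = 0.000237, adjusted p = 0.359), as did Irf7 (0.67 ± 0.27, SE, unadjusted p = 0.0272, adjusted p = 0.446). Rsad2 had its largest between GFP2 and GFP1 (0.82 ± 0.35, SE, unadjusted p = 0.0364, adjusted p = 1). At an unadjusted p under 0.05 the GFP1 against GFP0 step took 10.8% of all genes, GFP2 against GFP1 2.71%, GFP3 against GFP2 1.36% and GFP4 against GFP3 3.94%. No member departed from a straight line after adjustment, and again no gene did (0%). Before adjustment 2 members did in limma's F test, Oasl2 (unadjusted p = 0.00245, adjusted p = 0.679) and Ifit1 (unadjusted p = 0.0445, adjusted p = 0.679), against 7.01% of all genes. The difference in shape between Ifit1 and Oasl2 was not tested.

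**Figure D3:**
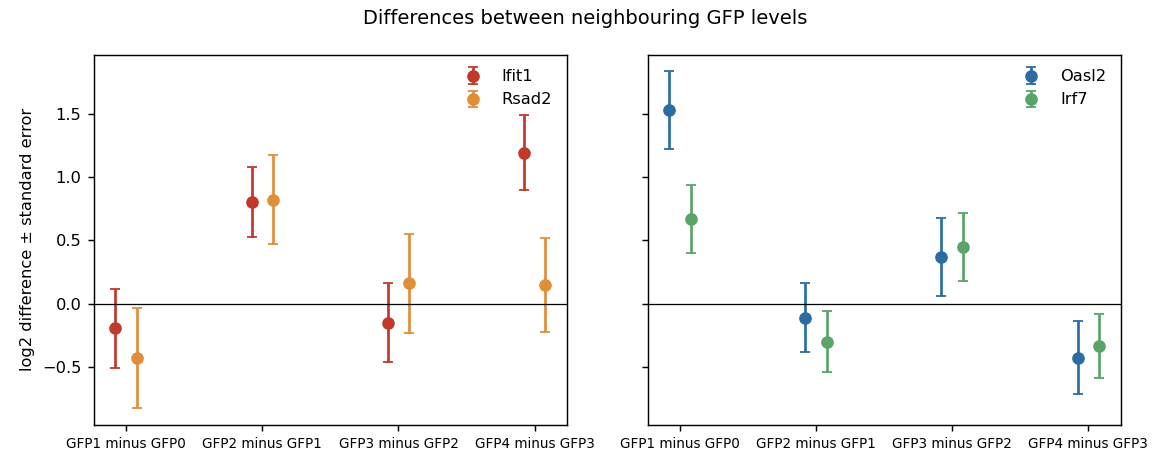
Log2 difference between each pair of neighbouring levels, higher GFP level minus lower, for Ifit1 and Rsad2 (left) and Oasl2 and Irf7 (right). Bars are moderated standard errors. The largest step of Ifit1 is GFP4 minus GFP3 (1.19), and those of Oasl2 (1.53) and Irf7 (0.67) are GFP1 minus GFP0.

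Over the 14 arrays the members did not vary as 1 block. Among the 28 pairs of members, Pearson's r ran from -0.56 to 0.75 with a median of 0.18, and 19 were positive. Oasl2 and Irf7 had r = 0.75 (Spearman's rho 0.67), and r = 0.54 once level means were taken out. Ifit1 and Rsad2 had r = 0.74 (rho 0.67), and 0.56 within levels. Ifit1 with Stat2 had r = 0.69 (rho 0.68), and 0.22 within levels. Ifit2 with Stat2 had r = 0.65 but rho = 0.13, and r = 0.09 without GFP4 replicate 2. Ifit1 with Ifit2 had r = 0.63 (rho 0.39), and 0.09 without the 2 arrays farthest from the median of Ifit1. Oasl2 and Ifit1, the called members, had r = 0.18 (rho 0.13). These correlations describe 14 arrays that share levels and array quality, and carry no test. On single arrays, 5 of the 8 members were above their own mean on each GFP4 array, all 8 on GFP2 replicate 3, and 1 and 3 on the GFP0 arrays. The share of all genes above their own mean on each array was not counted. Interquartile ranges ran from 2.09 on GFP0 replicate 1 to 2.73 on GFP2 replicate 3, and their part in these counts was not tested.

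**Figure D4:**
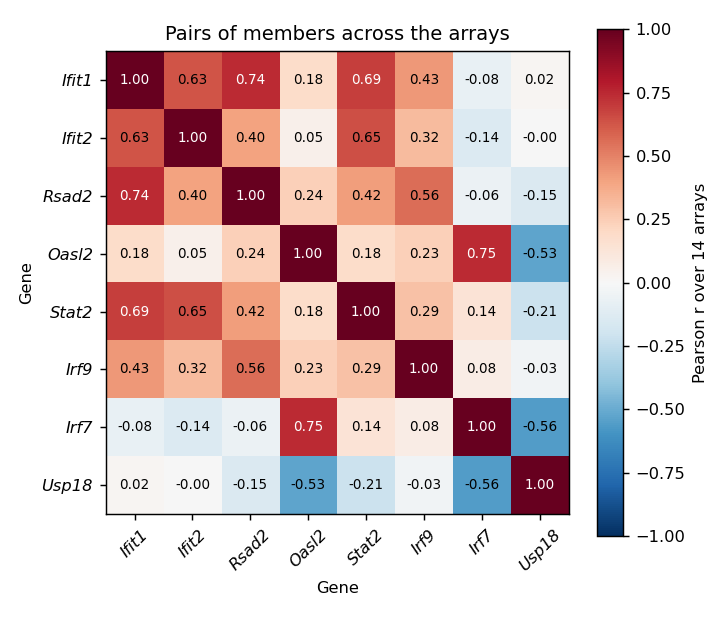
Pearson's r over 14 arrays for each pair of the 8 members, from blue (-1) to red (1). Ifit1, Ifit2, Rsad2 and Stat2 form pairs with r between 0.40 and 0.74, and Irf9 has 0.56 with Rsad2 and 0.43 with Ifit1. Oasl2 pairs with Irf7 at 0.75, and Usp18 is negative with Oasl2 (-0.53) and Irf7 (-0.56).

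The genes most like the members were ranked by r with the mean of the 8 members, each centred on its own mean, over 14 arrays and 11031 genes. The first 8 were Gsap (r = 0.97), Samd9l (0.94), Afap1l1 (0.94), Parp14 (0.94), Nr1d2 (0.93), Procr (0.93), Mtmr3 (0.93) and Slc66a2 (0.92). Samd9l and Parp14 stand on the list of other interferon-stimulated genes below, 2 of 8, where the pathway lists hold 65 of the 11031. Without the 2 arrays farthest from the median, r lay between 0.83 for Mtmr3 and 0.95 for Gsap. With level means taken out of both, the first 5 were Zfp263 (0.96), Lipa (0.96), Gramd1c (0.96), Marchf7 (0.95) and Zfp934 (0.94), none of which is on a pathway list.

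Of 86 other interferon pathway genes measured, from 7 lists of 95 symbols, 5 rose with GFP level, 1 fell and 80 did not pass. Among all genes 2.28% rose and 1.07% fell by this test, so the 1 fall in 86 is near the share among all genes. The median slope of the 86 was 0.05, against -0.0095 over all genes, and 57 had a positive slope, against 45.2% of all genes. These lists were also chosen with earlier results of these data known, so the contrast is descriptive. For GFP4 against GFP0, 1 of 86 rose and none fell, which is near the 1.25% higher among all genes. That count was 0 without GFP0 replicate 1, 2 without GFP1 replicate 1 or 3, GFP2 replicate 3 or GFP4 replicate 2, and 3 without GFP4 replicate 1 or 3. The count of 6 slope calls was 2 without GFP0 replicate 1, GFP1 replicate 1 or GFP3 replicate 1, 3 without GFP0 replicate 2 or GFP2 replicate 2, and 1 without GFP3 replicate 2 or GFP4 replicate 4.

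Uba7, the activating enzyme that charges Isg15 for conjugation, rose most. It read 10.77, 10.80, 11.36 and 10.76 in GFP4, against 8.75 and 9.08 in GFP0. Its GFP1, GFP2 and GFP3 means were 10.22, 10.35 and 11.14 (SD 0.17, 0.53 and 0.37), so both GFP0 arrays lay below the rest. The slope was 0.49 ± 0.06 (SE, adjusted p = 0.00228), and GFP4 exceeded GFP0 by 2.01 ± 0.28 (SE, adjusted p = 0.00556), or 4.01-fold. Its other probe sets had slopes of 0.52 (adjusted p = 0.00549) and 0.20 (adjusted p = 0.113). The slope of Uba7 passed in 27 of 28 alternatives, and over GFP1 to GFP4 alone it was 0.29 (adjusted p = 0.103). The conjugating enzyme gene Ube2l6 (0.07 ± 0.05, SE, adjusted p = 0.535, at a dim mean of 5.80) and the ligase gene Herc6 (-0.02 ± 0.11, SE, adjusted p = 0.958) did not pass.

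None of the receptor and kinase genes passed. Jak1 had a slope of 0.24 ± 0.07 (SE, adjusted p = 0.0897), with means of 7.92, 8.79, 9.20, 9.54 and 8.74 from GFP0 to GFP4. Ifnar1 had a slope of 0.23 ± 0.10 (SE, adjusted p = 0.239), Tyk2 of 0.04 ± 0.07 (SE, adjusted p = 0.83) and Ifnar2 of 0.03 ± 0.13 (SE, adjusted p = 0.943). The GFP4 arrays of Ifnar2 spread from 9.03 to 12.08, against 9.54 to 10.49 in GFP0.

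Of 9 type I interferon genes, 1 rose and 8 did not pass, and 7 of the 9 had means below the table median. Ifnz, an interferon zeta gene, read 8.51, 9.40, 8.42 and 9.17 in GFP4, against 8.03 and 7.39 in GFP0. Its slope was 0.27 ± 0.06 (SE, adjusted p = 0.0342), and its GFP4 arrays lay above those of the other levels. The call of Ifnz was lost without either GFP0 array (0.33 without replicate 1 and 0.21 without replicate 2), GFP1 replicate 1 (0.27), GFP2 replicate 2 (0.27), either GFP3 array (0.27 each) or GFP4 replicate 4 (0.25). Ifnb1, the interferon beta gene, had a slope of -0.07 (adjusted p = 0.404). Several probe sets of this family end in _x_at and may read close relatives.

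Among 37 other interferon-stimulated genes, 3 rose and 34 did not pass, with a median slope of 0.06 and 27 positive slopes. Samd9l, an antiviral and growth-restraining factor, had a slope of 0.27 ± 0.06 (SE, adjusted p = 0.0301). Parp14 had 0.29 ± 0.07 (SE, adjusted p = 0.0338) and Parp12 had 0.35 ± 0.09 (SE, adjusted p = 0.0436); both encode mono-ADP-ribosyltransferases. The call of Samd9l was lost without either GFP0 or GFP3 array, GFP1 replicate 1, GFP4 replicate 3 or GFP4 replicate 4 (slopes from 0.25 to 0.29). Parp14 lost its call with the same omissions other than GFP4 replicate 3, at slopes from 0.28 to 0.30. Parp12 lost it without either GFP0 array, GFP1 replicate 1, GFP2 replicate 1 or 2, GFP3 replicate 2 or GFP4 replicates 2, 3 or 4 (0.28 to 0.42), and passed in 9 of 28 alternatives. Other well-known genes on this list did not pass. Ifit3, which has a close copy in Ifit3b, had a slope of 0.08 (adjusted p = 0.478). The slopes were 0.06 for Oas1a (adjusted p = 0.492) and -0.08 for Oasl1 (adjusted p = 0.605). Those of Mx1 and Bst2 were 0.07 (adjusted p = 0.678) and -0.0062 (adjusted p = 0.98).

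None of 16 sensors and adaptors passed, and none of 6 genes on the type II interferon side did. Of 11 brakes and genes of nucleic acid clearance, Rnaseh2a fell (-0.31 ± 0.07, SE, adjusted p = 0.04) and 10 did not pass. Among these 10, Rnaseh2b (-0.36, adjusted p = 0.0523) and Rnaseh2c (-0.15, adjusted p = 0.211) also had negative slopes, while 7 of the 11 had positive slopes. Rnaseh2a encodes the catalytic subunit of ribonuclease H2, which also serves DNA replication. It read 8.27, 8.77, 9.11 and 8.62 in GFP4, against 9.50 and 10.46 in GFP0. Its call was lost without GFP0 replicate 2 (-0.21), either GFP3 array (-0.30 and -0.32), GFP2 replicate 2 or 3 (-0.31 each), GFP4 replicate 1 (-0.28) or GFP4 replicate 4 (-0.30).

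**Figure D5:**
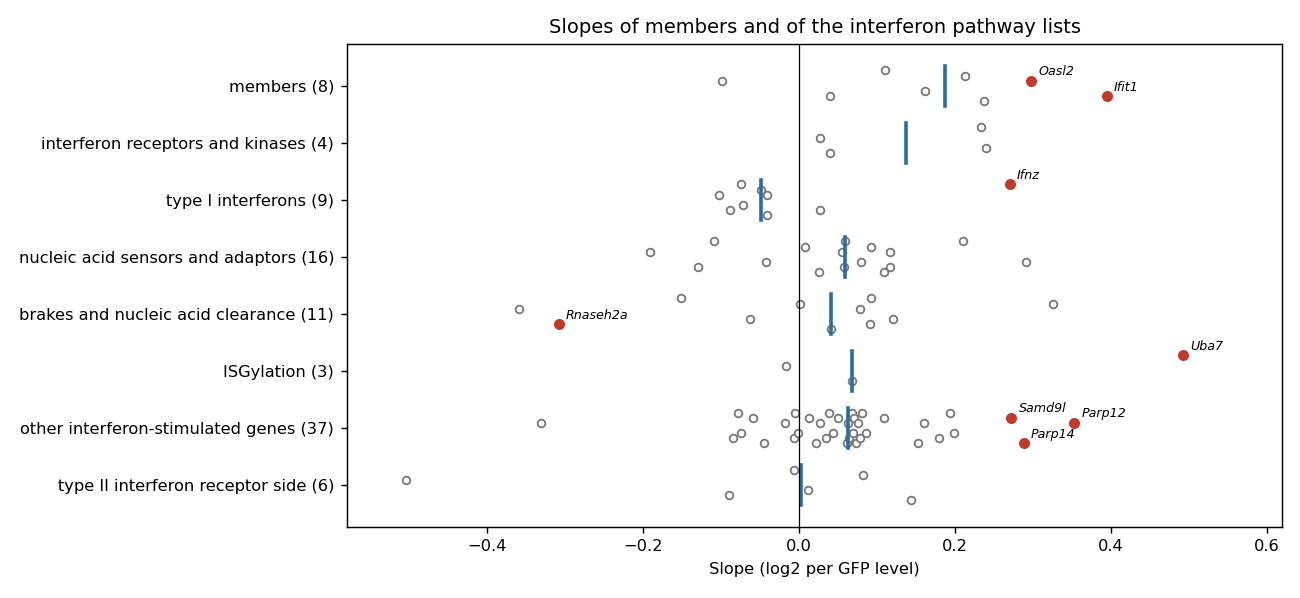
Slope in log2 per GFP level (x axis) of each measured gene, by list, with the number of genes per list in brackets. Filled red points passed at an adjusted p under 0.05 and are named, open points did not pass, and blue lines are list medians. Uba7 (0.49) lies farthest to the right, and Rnaseh2a (-0.31) is the 1 called fall.

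Markers of other cells were also read in each level. On average over a list, 7 neutrophil genes lay between 7.13 and 8.86 in GFP4, against 9.36 to 11.62 in GFP0, with 1 of 7 lower by slope. The 6 plasmacytoid dendritic cell genes, markers of cells that make much interferon, lay between 7.39 and 7.60 in GFP4, against 7.57 to 8.81 in GFP0, with 2 of 6 lower. The 4 mast cell genes lay between 6.06 and 8.49 in GFP4, against 9.39 to 9.92 in GFP0, with 3 of 4 lower. For 8 monocyte and macrophage genes the ranges were 8.04 to 9.77 in GFP4 and 9.51 to 9.83 in GFP0, with none called. The list mean of 7 T and NK cell genes was 7.09 in GFP4 and 8.09 in GFP0 (1 lower), and the range for 5 B cell genes was 7.26 to 7.76 in GFP4 and 7.89 to 9.55 in GFP0 (1 lower). The list mean was 7.19 in GFP4 and 7.51 in GFP0 for 4 lineage-gate genes, 6.70 in GFP4 and 6.87 in GFP0 for 3 erythroblast genes, and 7.06 in GFP4 and 6.83 in GFP0 for 4 endothelial genes, with no call among them. No marker gene on these lists was called higher. Their part in the values of Oasl2, Uba7 and the other genes that were low in GFP0 was not tested.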

How the data were processed

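Per the labels' protocols, total RNA of each sort was amplified and turned into biotin-labelled cRNA for 1 array. The submitters' processing notes name GCOS, RMA and affy, and the genome build is not given in the sources used here. Values were deposited on a log2 scale, judged from their range of 2.69 to 15.1. RMA corrects background, normalizes quantiles and summarizes probes, and it gives no detection calls. The deposited arrays did not share 1 distribution, with medians from 6.96 to 7.18 and interquartile ranges from 2.09 to 2.73. Each column matched 1 sample by its label.

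Probe sets with exactly 1 symbol (34958) were used, and 1 probe set, the brightest, stood for each of 18194 genes. A model of level means was fitted to all 14 arrays in limma 3.58.1 (R 4.3.3; 9 residual and 3.99 prior degrees of freedom), with tests of the slope, GFP4 against GFP0, the steps, any difference and the departure from a line. All were two-sided, at an adjusted p under 0.05 (Benjamini-Hochberg, all genes). The members, the pathway lists and the rules were chosen with earlier results of these data known. Named were all members, the receptor, kinase and ISGylation genes, list genes that passed, 3 LSK markers and the genes most correlated with the members' mean. Ifnb1, Ifit3, Oas1a, Oasl1, Mx1, Bst2, Rnaseh2b and Rnaseh2c were added after their values were seen. In simulated arrays the slope test recovered 41% of genes with a slope of 0.25 and 88% with a slope of 0.5. The GFP4 against GFP0 test recovered 40% at a difference of 1 and 82% at 2, each among 18194 genes. Each simulation changed 200 genes, 100 per size, with independent normal noise at each gene's own spread. It held no shared array effects, so recovery in the real arrays may differ. Promoter windows are RefSeq's (GRCm38.p6), matched by symbol. Figures were drawn with matplotlib 3.10.9.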

Additional observations from a re-analysis of the deposited data

Results flagged for a closer look

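In the 4 GFP4 arrays, 2 of 8 members had 1 array far from the rest by Dixon's test, whose nominal rate is about 1 group in 20. The share of all genes flagged in these arrays was not computed. The 8 members were read on the same 4 arrays, so their tests are not independent. Ifit2 read 10.35 in GFP4 replicate 2, while the other 3 GFP4 arrays lay between 7.85 and 7.98. That array had the lowest median r with its own level over all genes (0.948), whose part in the Ifit2 value was not tested. Irf7 read 9.56 in GFP4 replicate 3, against 8.87 to 8.95 in the other 3.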

How the results depend on the processing

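Over 16 single-member results and 432 values under the alternatives, 382 kept direction and side of the threshold, 39 lost the call, 1 gained a call and 10 changed sign. Only Ifit1 and Oasl2 were called as reported, so results of the other members could keep their side by staying uncalled. Leaving out 1 array changed the slope of Ifit1 in 1 of 14 fits and its difference in 2 of 14. For Oasl2 these were 5 of 14 and 6 of 14. Other alternatives changed Ifit1 in 5 of 14 for the slope and 5 of 12 for the difference. They changed Oasl2 in 8 of 14 and 8 of 12. With 1 array left out, the count of members called ranged from 0 to 3 for the slope, 0 to 2 for GFP4 against GFP0 and 0 to 1 for any difference, the median slope from 0.12 to 0.22, and the pathway count from 1 to 7 for the slope and 0 to 3 for GFP4 against GFP0. In the order members by slope (2 as reported), members by GFP4 against GFP0 (2), members by any difference (1), pathway genes by slope (6) and pathway genes by GFP4 against GFP0 (1), the counts that moved were as follows. Array quality weights gave 0, 0, 1, 1 and 0, with a median slope of 0.14. Over all genes they called 90 by slope and 2 by GFP4 against GFP0, against 609 and 306 as reported. Leaving out both arrays of narrow spread gave 0, 0, 0, 2 and 0, as did leaving out GFP4 replicate 2 as well, where the median slope was 0.10. With the 3′ minus 5′ control signals as covariates the first 4 counts were 0, 0, 0 and 1. All genes called in that setting numbered 165 by slope and 142 by GFP4 against GFP0. With the interquartile range as a covariate the first 2 were 1 and 1, and the median slope was 0.11. Over all genes 418 and 209 were called there. Centring on medians gave 1 member for GFP4 against GFP0, 0 for any difference and 3 pathway slopes. It called 459 of all genes by slope and 228 by GFP4 against GFP0. The arrays of GFP0 and GFP4 alone gave 1 member, and regression on the level gave 1. Over all genes these settings called 58 by GFP4 against GFP0 and 728 by slope. Pathway genes for GFP4 against GFP0 numbered 3 after cyclic loess, 3 without dim genes and 4 with the mean over probe sets. In alternatives chosen after seeing the data, GFP0 to GFP3 alone gave 0 members and 1 pathway gene by slope. GFP1 to GFP4 alone gave 1 and 2, with a median slope of 0.14. Among all genes these ranges called 73 and 282 by slope. The cause of these changes was not tested. No alternative gave a call for a step or for a departure from a line.

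The replicate block gave 2 members by slope, 0 by GFP4 against GFP0 and 0 by any difference, with 2 pathway genes by slope. It called 337 of all genes by slope and 67 by GFP4 against GFP0. Replicate numbers do not pair the samples by the labels, and residuals of arrays with the same number in different levels correlated with a median r of 0.05 (from -0.26 to 0.58). For arrays with other numbers in different levels the median r was lower, at -0.05 (from -0.63 to 0.48). The difference between these sets of pairs was not tested. Some signs changed. Ifit2 was -0.36 (GFP4 against GFP0, 0.78 as reported) and -0.0166 (slope, 0.21 as reported) without the arrays of narrow spread and GFP4 replicate 2. Irf9 for GFP4 against GFP0 was -0.0088 after cyclic loess, -0.0348 to 0.2281 with 1 array left out (lowest without GFP0 replicate 1), -0.11 without the arrays of narrow spread and -0.13 without these and GFP4 replicate 2, and its slope was -0.0019 and -0.0052 in the last 2 of these. Over GFP1 to GFP4 the slope of Irf7 was -0.0136 (0.11 as reported) and that of Oasl2, called at 0.30 as reported, was -0.014. Depth is not an issue on arrays; without detection calls, dim probe sets have no stated floor.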
